A study of Mus musculus with 36 samples.

Results

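The genes described here code for the collagen chains, the laminin chains and the other structural proteins of the extracellular matrix and basement membrane, measured in the testis of juvenile mice with altered Brdt. They were chosen by name: every collagen alpha chain, every laminin chain, and Nid1, Nid2, Fn1, Sparc, Hspg2, Dcn, Lum, Bgn, Fbn1, Eln, Tnc and Vim, where a probe reached a detection p under 0.01 on all 6 arrays of at least 1 group. The array names 61 such genes. The detection rule kept 42 of them, out of 11529 genes tested in all. Of the 42 genes, 34 met the rule in all 6 groups and 8 in fewer, 2 of them in 1 group only: Lamb3 met it only in wild type at 20 days post partum (dpp), and Col6a5 only in the knockout at that age. A gene kept only through groups in which it is high tends to differ from a dim group, so the change of Lamb3 is in part set by the choice. The same holds for Col6a5 in the knockout at 20 dpp, and for Lama5, Col24a1 and Col2a1 between the control ages. The other genes that met the rule in fewer groups are Col2a1, Col9a2, Col17a1, Col24a1, Col26a1 and Lama5. Col5a2 was the nearest of the 19 genes left out, with a probe detected on at most 5 arrays of a group. Lamb1 and Col28a1 reached 4 arrays and Col8a1 reached 3. Col10a1, Col13a1, Col19a1, Col6a6 and Lama4 were detected on no array of any group by the named probes. The remaining 10 genes left out were Col11a1, Col11a2, Col23a1, Col25a1, Col27a1, Col4a6, Col5a3, Col6a4, Col9a1 and Tnc.

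RNA of whole testis was hybridised to 36 single-colour Illumina bead arrays, 6 for each group, which came from 24 C57BL/6 mice. Brdt codes for the testis-specific member of the BET family, whose paired bromodomains bind acetylated histones. The BD1 deletion group at 20 dpp held 3 BD1-/- mice, which lack the first bromodomain, and its control group held 4 mice of the same litters, BD1+/- animals 191 and 219 and BD1+/+ animals 195 and 196. At 20 dpp the knockout line gave 4 KO-/- and 3 KO+/+ (wild-type) mice. At 17 dpp it gave 4 KO-/- and 6 KO+/- (heterozygous) mice, so that the controls of the knockout line differ in genotype between the ages. Each wild-type mouse came from litter 1, as did knockout animals 148 and 152. Knockout animals 139 and 140 came from litter 2. Arrays of 1 mouse were averaged, and n counts mice.

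The seminiferous tubule stands on a basement membrane, a sheet of collagen IV and laminin networks that nidogens and perlecan link together. Sertoli cells inside the tubule and peritubular myoid cells around it both make components of this sheet. The space between tubules, with Leydig cells, vessels and fibroblasts, holds fibrillar collagens, collagen VI and small proteoglycans such as decorin. Germ cells are the other large cell population of the organ, and the first round spermatids appear around the older of the sampled ages.

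Levels are given as log2 signals after background correction and normalization, and folds as differences of group means on that scale. A level of one probe cannot be set against that of another. Array medians before normalization were 118.27 to 152.89, and 17379 to 20016 probes per array were detected. The level of Brdt itself was lower in each altered group than in its controls, with log2 fold changes of -3.70 for KO-/- mice aged 20 dpp, -2.90 for KO-/- mice aged 17 dpp and -1.03 for BD1-/- mice. Where the Brdt probe lies relative to the deleted bromodomain sequence was not examined. Most defining markers of testis cells were present: Sox9 of Sertoli cells, Acta2 of peritubular myoid cells, Cyp11a1 of Leydig cells and Piwil1 of spermatocytes were detected on all 36 arrays. Other markers of these cell types were detected on fewer, Gata4 on 17, Tagln on 21 and Star on 14. In RNA of a whole organ, fewer cells of a type and less RNA per cell cannot be told apart.

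In the knockout at 20 dpp, most of the basement membrane genes stood above wild type, and the 19 genes called higher had log2 fold changes of 0.52 to 1.06. Chains of collagen IV, most laminin chains, nidogen, perlecan, the endostatin precursor Col18a1 and the matricellular protein Sparc were higher. Chains of the fibrillar collagens and of collagen VI were not called higher in the fit over all 6 groups, but several were in a fit on the compared groups alone, and the gene classes were not tested against each other. Col2a1, Lamb3, Col16a1 and Col9a3 were lower. In limma's moderated test, 19 of the 42 genes were higher and 4 lower at an adjusted p under 0.05. Among all genes tested, 39.4% were higher and 20.7% lower. The 42 genes gave 45.2% higher and 9.52% lower, so the share of higher genes is near the share over all genes. Their median log2 fold change was 0.55, beside 0.24 over all genes tested. Taken relative to that shift of all genes, 5 of the 42 genes were higher and 5 lower, where all genes gave 14.9% and 28.7%. The 5 higher genes were Col4a4, Col4a5, Col18a1, Sparc and Dcn, and the 5 lower ones Col2a1, Lamb3, Col16a1, Col9a3 and Nid2. With only the compared groups in the fit, 28 of the 42 genes were higher and 4 lower (40.6% and 21.6% of all genes). In 26 of the 42 genes every knockout animal was above every wild-type animal, and in 4 every one was below (41.7% and 22.4% of all genes).

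The knockout and wild-type mice at 20 dpp share litter 1, so the comparison was repeated within it. With the 2 knockout mice of that litter, 12 of the 42 genes were called, 8 higher and 4 lower (23.7% and 14.5% of all genes). Col4a5 (log2 fold change 0.88), Col18a1 (0.77) and Sparc (0.61) were among those called within the litter, and Hspg2 (0.52, adjusted p = 0.116) and Lamc1 (0.62, adjusted p = 0.0782) were not. Col16a1, Col18a1, Col2a1, Col4a5, Lamb3 and Sparc, 6 of the 23 genes called, stayed called under every alternative run, Lamb3 being a gene whose change the detection rule in part set. A fit with litter as a block called 24 genes higher and 4 lower (33.2% and 18.7% of all genes). Litter 2 holds knockout mice alone, so the fold changes of this fit rest on the mice of litter 1, as in the run within it. The arrays of both groups fall into a dimmer and a brighter set, each with mice of both, though the dimmer knockout arrays are of animals 148 and 152 alone. Within the dimmer arrays 29 genes were higher and 4 lower (29.9% and 18.7% of all genes), and within the brighter ones 25 and 4 (36.8% and 20.6%). The run on the dimmer arrays uses the same mice as that within litter 1, so these runs are not independent checks. With brightness as a block the counts were 30 and 4 (43.3% and 22.7%).

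**Figure D1:**
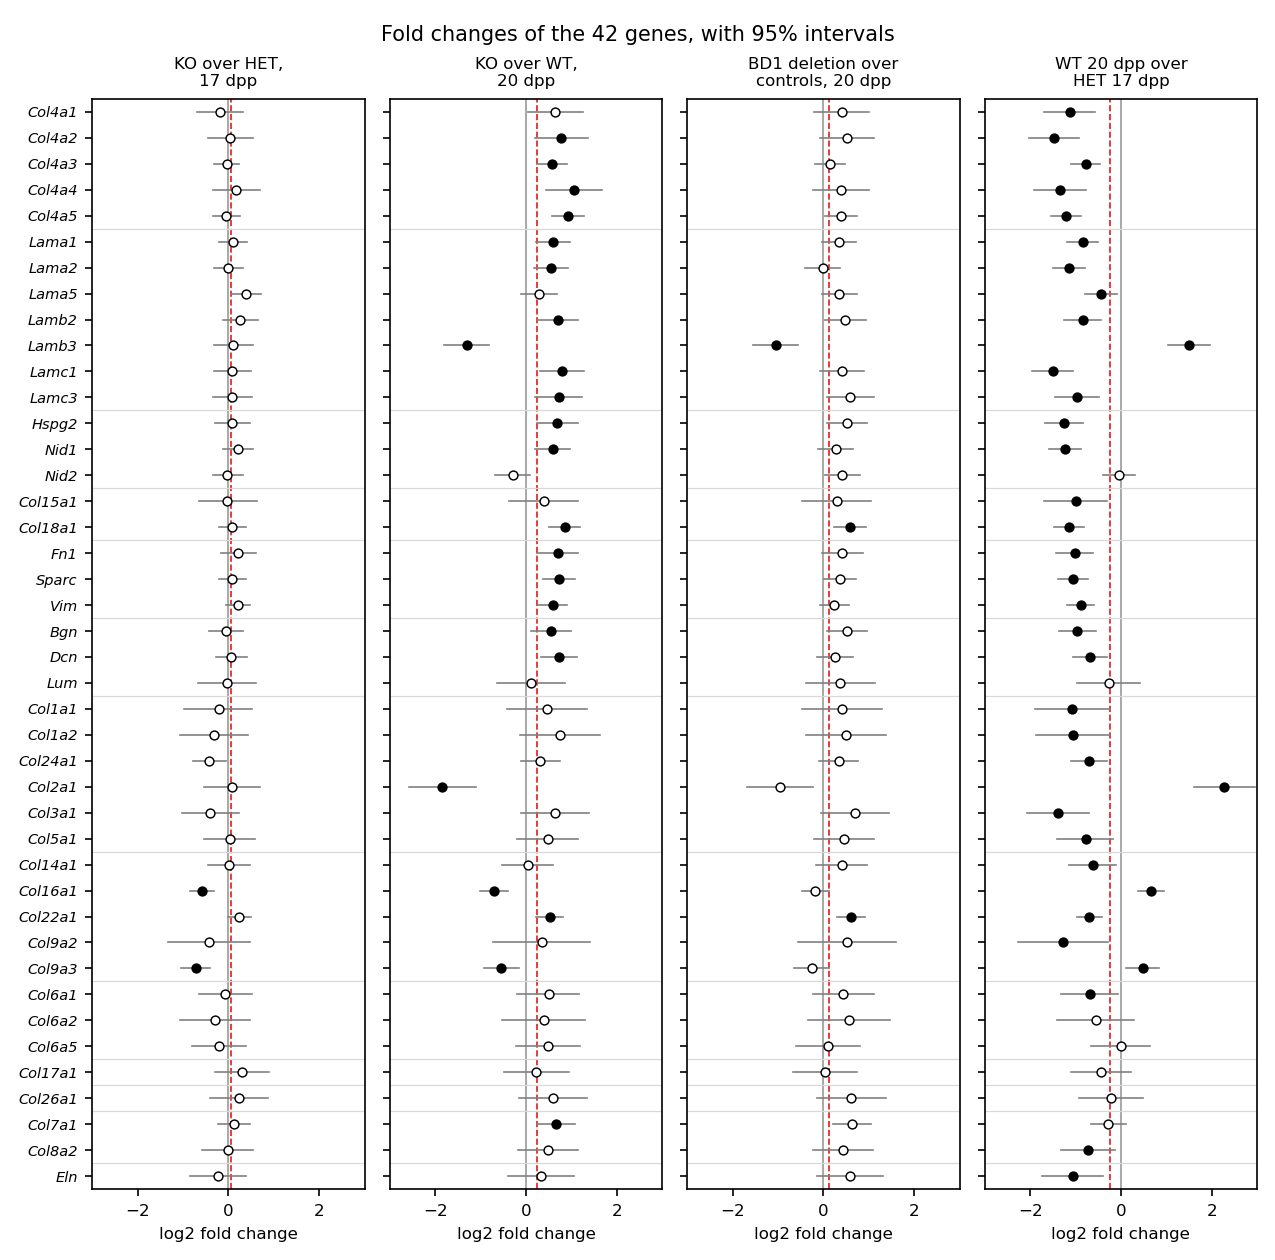
Log2 fold change (horizontal axis) of each of the 42 genes in 4 comparisons, with 95% intervals. Filled points have an adjusted p under 0.05, the dashed line marks the median of all genes tested, and pale lines separate collagen IV, laminins, nidogens and perlecan, multiplexins, Fn1 with Sparc and Vim, small proteoglycans, fibrillar collagens, fibril-associated collagens, collagen VI and the rest. In the knockout at 20 dpp 19 genes are higher and 4 lower, and with age in the controls 31 are lower and 4 higher. Lamb3 was detected in WT 20 dpp and BD1 control mice alone, so its points include values not above background.

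Collagen IV forms the covalent network of every basement membrane, from heterotrimers of its chains. Of its 5 measured chains, 4 were higher in the knockout at 20 dpp and none was lower, where 39.4% of all genes were higher. Relative to the median of all genes Col4a4 and Col4a5 stayed called, and Col4a3 (adjusted p = 0.0964) and Col4a2 (0.133) did not. Col4a5 read 9.01, 9.02, 9.04 and 9.18 in the knockout mice, against 7.95, 8.00 and 8.44 in wild type. The groups did not overlap, and the log2 fold change was 0.93 (SE 0.17, adjusted p = 0.000169). Col4a4 read 7.95, 8.4, 8.78 and 8.98 in the knockout mice, against 7.27, 7.45 and 7.69 in wild type (log2 fold change 1.06, SE 0.30, adjusted p = 0.00482). It had the largest fold of the 42 genes upward in this comparison, 2.08-fold, and also a wide spread between the knockout mice. Col4a3, whose gene neighbours Col4a4 on chromosome 1 with 0 protein-coding genes between, read 8.95, 9.07, 9.14 and 9.21 in knockout mice, against 8.34, 8.5 and 8.72 in wild type, a log2 fold change of 0.58 (SE 0.16, adjusted p = 0.00443). These 3 chains assemble together in specialised basement membranes such as that of the kidney glomerulus.

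Col4a1 and Col4a2 code for the chains found in nearly all basement membranes, and the genes lie side by side on chromosome 8. Col4a2 read 10.29, 10.36, 10.43 and 10.74 in knockout mice, against 9.66, 9.67 and 9.70 in wild type. Its log2 fold change was 0.78 (SE 0.29, adjusted p = 0.0236). Col4a1 read 11.74, 11.87, 11.92 and 12.05 in knockout mice, against 11.16, 11.21 and 11.38 in wild type. The animals of the 2 groups did not overlap for Col4a1 either, but the fold change of 0.65 (SE 0.29) missed the threshold with an adjusted p of 0.058. The call for Col4a2 was lost without knockout animal 139 (adjusted p = 0.0659), without wild-type animal 149 (0.0591) and without wild-type animal 157 (0.0587).

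Laminins are trimers of an alpha, a beta and a gamma chain that form the cell-facing network of the sheet. Of 7 measured chains, 5 were higher in the knockout at 20 dpp, 1 was lower and 1 did not pass, where 39.4% of all genes were higher. None of the 5 higher chains stayed called relative to the median of all genes or within litter 1. Lamc1, the gamma chain of most laminins, read 8.67, 8.76, 8.79 and 9.30 in knockout mice, against 8.05, 8.11 and 8.12 in wild type (log2 fold change 0.79, SE 0.24, adjusted p = 0.00706). Lama1, an alpha chain known from embryonic and Sertoli cell basement membranes, read 9.56, 9.71, 9.74 and 10.13 in knockout mice, against 9.18, 9.18 and 9.23 in wild type (0.59, SE 0.18, adjusted p = 0.00752). For both genes every knockout mouse stood above every wild-type mouse, and animal 139 was the highest.

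Among the other laminins, Lamb2, a beta chain, read 9.82, 9.86, 10.20 and 10.40 in knockout mice, against 9.33, 9.37 and 9.41 in wild type (log2 fold change 0.70, SE 0.22, adjusted p = 0.0092). Lamc3 was higher by 0.72 (adjusted p = 0.0166) and Lama2, the alpha chain of muscle basement membranes, by 0.55 (adjusted p = 0.0138). Without wild-type animal 149 the call for Lamc3 was lost (adjusted p = 0.0531), and without wild-type animal 146 that for Lama2 (0.0655). Lama5, an alpha chain of most adult basement membranes, read 5.71, 5.73, 5.77 and 6.16 in knockout mice, against 5.50, 5.55 and 5.6 in wild type. These levels lie near background, and the fold change of 0.29 (SE 0.19, adjusted p = 0.186) did not pass.

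Nidogens and perlecan join the collagen IV and laminin networks. Nid1 read 8.5, 8.51, 8.56 and 8.72 in knockout mice at 20 dpp, against 7.86, 7.97 and 8.09 in wild type (log2 fold change 0.60, SE 0.19, adjusted p = 0.00899). Hspg2, the perlecan gene, read 10.18, 10.28, 10.46 and 10.69 in knockout mice, against 9.66, 9.72 and 9.74 in wild type (0.69, SE 0.22, adjusted p = 0.00987). Neither pair of groups overlapped. Nid2, the second nidogen, had a value below 0 that did not pass, though relative to the median of all genes it was called lower (-0.54, adjusted p = 0.0251). It read 8.03, 8.06, 8.56 and 8.66 in knockout mice, against 8.46, 8.68 and 8.71 in wild type (-0.29, SE 0.19, adjusted p = 0.181), with overlap. Its lower readings were those of animals 139 and 140, the mice of litter 2.

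Col18a1 codes for a collagen of basement membranes whose end fragment is endostatin. It read 12.10, 12.18, 12.29 and 12.32 in knockout mice at 20 dpp, against 11.22, 11.42 and 11.47 in wild type. This 1.80-fold difference (log2 fold change 0.85, SE 0.17, adjusted p = 0.000342) was larger than the spread in either group. Its relative Col15a1 read 7.29, 7.31, 7.98 and 8.00 in knockout mice, with the mice of litter 1 high and those of litter 2 low, against 7.22, 7.26 and 7.31 in wild type (0.39, adjusted p = 0.367).

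Sparc, a secreted protein that binds collagens, read 12.87, 13.02, 13.14 and 13.22 in knockout mice, against 12.24, 12.36 and 12.42 in wild type. The groups did not overlap (log2 fold change 0.73, SE 0.17, adjusted p = 0.00134). Vim, the intermediate filament protein of Sertoli and mesenchymal cells and not a matrix protein, read 10.97, 11.04, 11.07 and 11.15 in knockout mice, against 10.41, 10.42 and 10.56 in wild type (0.59, SE 0.15, adjusted p = 0.00275). Fn1, fibronectin, read 7.21, 7.47, 7.50 and 7.68 in knockout mice, against 6.69, 6.73 and 6.89 in wild type (0.70, SE 0.22, adjusted p = 0.00952).

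The small proteoglycans bind collagen fibrils and growth factors. Dcn, decorin, read 13.07, 13.18, 13.32 and 13.58 in knockout mice, against 12.29, 12.48 and 12.91 in wild type (log2 fold change 0.73, SE 0.19, adjusted p = 0.003). Bgn, biglycan, read 11.80, 12.03, 12.23 and 12.26 in knockout mice, against 11.46, 11.55 and 11.55 in wild type (0.56, SE 0.21, adjusted p = 0.0262). Both were free of overlap. The call for Bgn was lost without knockout animal 139 (adjusted p = 0.0682) or 148 (0.0603) and without wild-type animal 149 (0.0562) or 157 (0.0752). Lum, lumican, which lies next to Dcn on chromosome 10, differed by 0.12 (95% interval -0.64 to 0.87, adjusted p = 0.799).

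**Figure D2:**
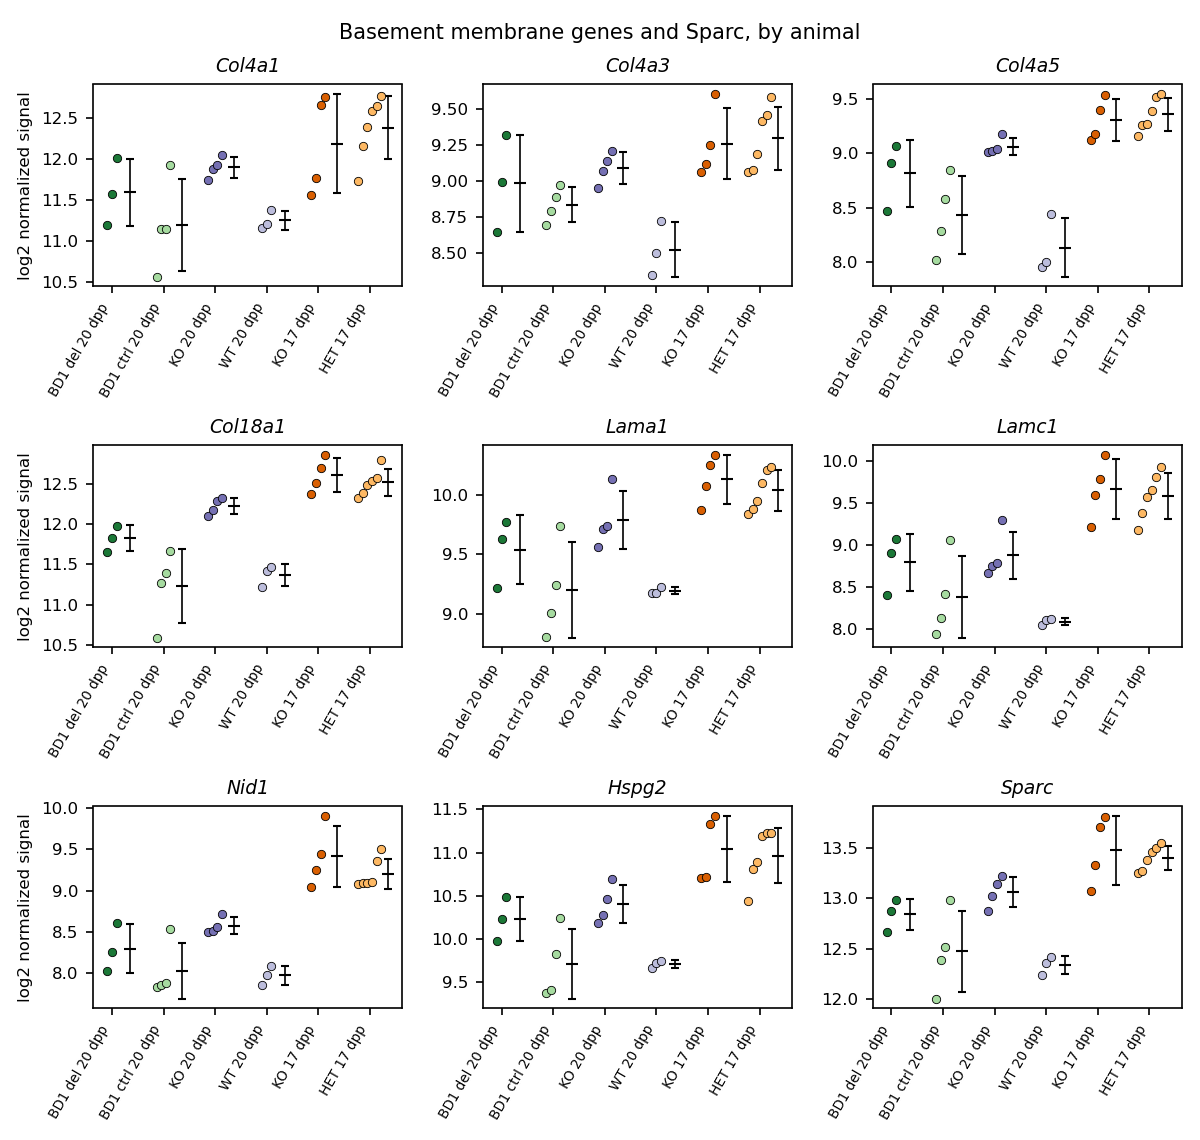
Log2 normalized signal (vertical axis) of 8 basement membrane genes and Sparc in each mouse, by group, with group mean and SD beside the points. For each of these genes the KO 20 dpp mice stand above the WT 20 dpp mice without overlap, and the HET 17 dpp mice stand above the WT 20 dpp mice without overlap.

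Fibrillar collagens, the chains of the banded fibrils of connective tissue, gave no higher call in the knockout at 20 dpp in the fit over all groups. Of 6 measured genes, 1 was lower and 5 did not pass, with a median log2 fold change of 0.47. Col1a1 read 10.28, 10.38, 10.45 and 10.64 in knockout mice, against 9.92, 9.94 and 10.06 in wild type (0.46, SE 0.43, adjusted p = 0.352). Col1a2, the partner chain, read 8.34, 8.65, 8.82 and 9.06 in knockout mice, against 7.95, 7.95 and 8.01 in wild type (0.75, SE 0.43, adjusted p = 0.131). Both pairs of groups were free of overlap, but these genes vary widely in the other groups, whose spread enters the same fit. With only the compared groups in the fit both were called, Col1a1 with an adjusted p of 0.00433 and Col1a2 with 0.00323. Col3a1 read 8.00, 8.59, 8.70 and 8.85 in knockout mice, against 7.77, 7.86 and 8.02 in wild type (0.65, SE 0.36, adjusted p = 0.124), and it too passed with only the compared groups (adjusted p = 0.014), as did Col5a1 (0.018). The chains of collagen VI, which makes beaded filaments around cells, differed by 0.39 to 0.50 with 0 of 3 called. With only the compared groups Col6a1 (adjusted p = 0.00793), Col6a2 (0.0374) and Col6a5 (0.04) passed. Col6a5 met the detection rule only in the knockout at this age, so its call is in part set by the choice. Of the other collagens, Col7a1, the anchoring fibril chain, was higher by 0.67 (adjusted p = 0.00818) and Col22a1, a chain of tissue junctions, by 0.52 (adjusted p = 0.00467). Of the genes not called, Col26a1 passed (0.88, adjusted p = 0.0448) when knockout animal 139 was left out.

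Of the 4 genes that were lower in the knockout at 20 dpp, Col2a1 is a fibrillar collagen and Lamb3 a laminin, while Col16a1 and Col9a3 are both fibril-associated collagens. Col2a1, the main collagen of cartilage, read 5.76, 6.13, 6.45 and 6.58 in knockout mice, against 7.77, 8.05 and 8.39 in wild type. This was the largest change of the 42 genes in this comparison, a 3.58-fold lower level (log2 fold change -1.84, SE 0.35, adjusted p = 0.000229). Col16a1, a fibril-associated collagen, read 10.86, 11.03, 11.35 and 11.47 in knockout mice, against 11.87, 11.89 and 11.89 in wild type (-0.70, SE 0.15, adjusted p = 0.000479). Col9a3, a chain of cartilage collagen IX, read 10.64, 10.78, 11.07 and 11.14 in knockout mice, against 11.41, 11.42 and 11.52 in wild type (-0.54, SE 0.19, adjusted p = 0.0159). Without knockout animal 148 the call for Col9a3 was lost (-0.45, adjusted p = 0.0516).

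Lamb3 codes for a beta chain of the laminin of skin and other epithelia. It read 4.73, 4.77, 4.98 and 5.00 in knockout mice, where no array detected it, against 6.06, 6.08 and 6.41 in wild type, where all 6 arrays did. A probe not above background has only a bound, and Lamb3 was at least 1.61-fold lower in the knockout. Its adjusted p of 0.000145 comes from limma's test on the measured values, not from the bound. Lamb3 met the detection rule only in wild type at 20 dpp, so this change is in part set by the choice. The 4 genes did not overlap between the groups.

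Between the younger and the older controls, most of the matrix genes fell. Wild-type mice at 20 dpp had lower levels than heterozygous mice at 17 dpp for 31 of the 42 genes and higher levels for 4, Col2a1, Lamb3, Col16a1 and Col9a3. Among all genes tested, 45.5% were lower and 25.9% higher, beside 73.8% and 9.52% of the 42 genes. Their median log2 fold change was -0.84, against -0.25 over all genes. Relative to that shift of all genes, 22 of the 42 genes were lower and 4 higher (28.2% and 34.3% of all genes). Every wild-type mouse at 20 dpp was below every heterozygous mouse at 17 dpp for 28 of the 42 genes and above for 4 (40.2% and 24.5% of all genes). This comparison and that of the knockout at 20 dpp share the 3 wild-type mice, so their fold changes are not independent, and values are set side by side here without a test of their likeness. The wild-type mice were all of litter 1 and the heterozygous mice of litters 7, 8 and 9. Age, control genotype and litter therefore cannot be told apart in the comparison of the controls.

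All 5 collagen IV chains and 6 of 7 laminins were lower in the 20 dpp controls. Lamc1 spanned 8.05 to 8.12 in wild-type mice at 20 dpp, against a lowest, median and highest reading of 9.18, 9.62 and 9.93 in heterozygous mice at 17 dpp. Its log2 fold change of -1.50 (SE 0.22, adjusted p = 4.52e-06) was the largest fall of the 42 genes. Col4a2 changed by -1.48 (SE 0.27, adjusted p = 4.54e-05), with readings of 10.5, 11.3 and 11.5 at 17 dpp, and Col4a1 by -1.13 (SE 0.27, adjusted p = 0.000793), with 11.7, 12.5 and 12.8. Col4a5 (-1.22, SE 0.16, adjusted p = 1.28e-06) had the smallest adjusted p of the 42 genes, with readings of 9.16, 9.33 and 9.55 at 17 dpp.

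Hspg2 changed by -1.26 (SE 0.20, adjusted p = 1.4e-05), with readings of 10.4, 11.0 and 11.2 at 17 dpp. Nid1 changed by -1.23 (SE 0.17, adjusted p = 2.82e-06) and Col18a1 by -1.15 (SE 0.16, adjusted p = 2.34e-06). Lama2 changed by -1.15 (SE 0.17, adjusted p = 5.15e-06), Lama1 by -0.84 (SE 0.16, adjusted p = 0.000118) and Lamb2 by -0.84 (SE 0.20, adjusted p = 0.000804). In none of these genes did the ages overlap. Nid2 stood apart from Nid1 in its values, with a change of -0.04 (95% interval -0.40 to 0.32, adjusted p = 0.84) and readings of 8.49, 8.69 and 8.78 in heterozygous mice at 17 dpp.

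Sparc changed by -1.06 with age (SE 0.16, adjusted p = 6.15e-06), Fn1 by -1.02 (SE 0.20, adjusted p = 0.000123) and Vim by -0.88 (SE 0.14, adjusted p = 1.41e-05). Of the small proteoglycans, Bgn changed by -0.96 (SE 0.19, adjusted p = 0.000157) and Dcn by -0.68 (SE 0.18, adjusted p = 0.00172), while Lum (-0.27, adjusted p = 0.476) did not pass. Fibrillar collagens were lower with age in 5 of 6 cases. Col3a1 changed by -1.39 (SE 0.33, adjusted p = 0.000875), Col1a1 by -1.07 (SE 0.39, adjusted p = 0.0193) and Col1a2 by -1.06 (SE 0.40, adjusted p = 0.0209). A second, dimmer probe of Col3a1 gave a change of -0.33 (adjusted p = 0.441).

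Eln, the elastin gene, changed by -1.06 (adjusted p = 0.00578), Col15a1 by -1.0 (adjusted p = 0.0119) and Lamc3 by -0.97 (adjusted p = 0.000789). Other calls lay between -1.34 for Col4a4 and -0.44 for Lama5. Lama5 and Col24a1 met the detection rule in heterozygous mice at 17 dpp and not in wild type at 20 dpp. Their falls are thus in part set by the choice. Some of the calls with age rested on single animals. Leaving out wild-type animal 146 or 149 ended the call for Col1a1 (adjusted p = 0.0502 and 0.0549) and Col1a2 (0.0522 and 0.055). Col5a1 lost its call without wild-type animal 149 (0.0928), Col9a2 without wild-type animal 146 (0.0571) or 157 (0.0584), and Col9a3 without wild-type animal 146 (0.0572). For Col6a1, Col8a2, Col14a1 and Lama5 several single animals ended the call, among them heterozygous animal 121 (0.0943, 0.0678, 0.0617 and 0.0708) and wild-type animal 149 (0.119, 0.0992, 0.0799 and 0.0676). Of the 35 calls, 26 held whichever animal was left out.

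The genes higher in the 20 dpp controls were Col2a1, Lamb3, Col16a1 and Col9a3, whose knockout values above rest on the same wild-type mice. Col2a1 had readings of 5.26, 5.76 and 6.28 in heterozygous mice at 17 dpp, and wild-type mice at 20 dpp were 4.87-fold higher (log2 fold change 2.28, SE 0.33, adjusted p = 3.64e-06). Lamb3 had readings of 4.42, 4.73 and 4.90 at 17 dpp, was detected on no array of that group, and was at least 1.53-fold higher in wild-type mice at 20 dpp. Its adjusted p of 5.38e-06 comes from limma's test on the measured values, not from the bound. Col2a1 and Lamb3 met the detection rule in wild type at 20 dpp and not in heterozygous mice at 17 dpp. Their rises are thus in part set by the choice. Col16a1 was higher by 0.66 (SE 0.14, adjusted p = 0.000187) and Col9a3 by 0.48 (SE 0.17, adjusted p = 0.0165).

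**Figure D3:**
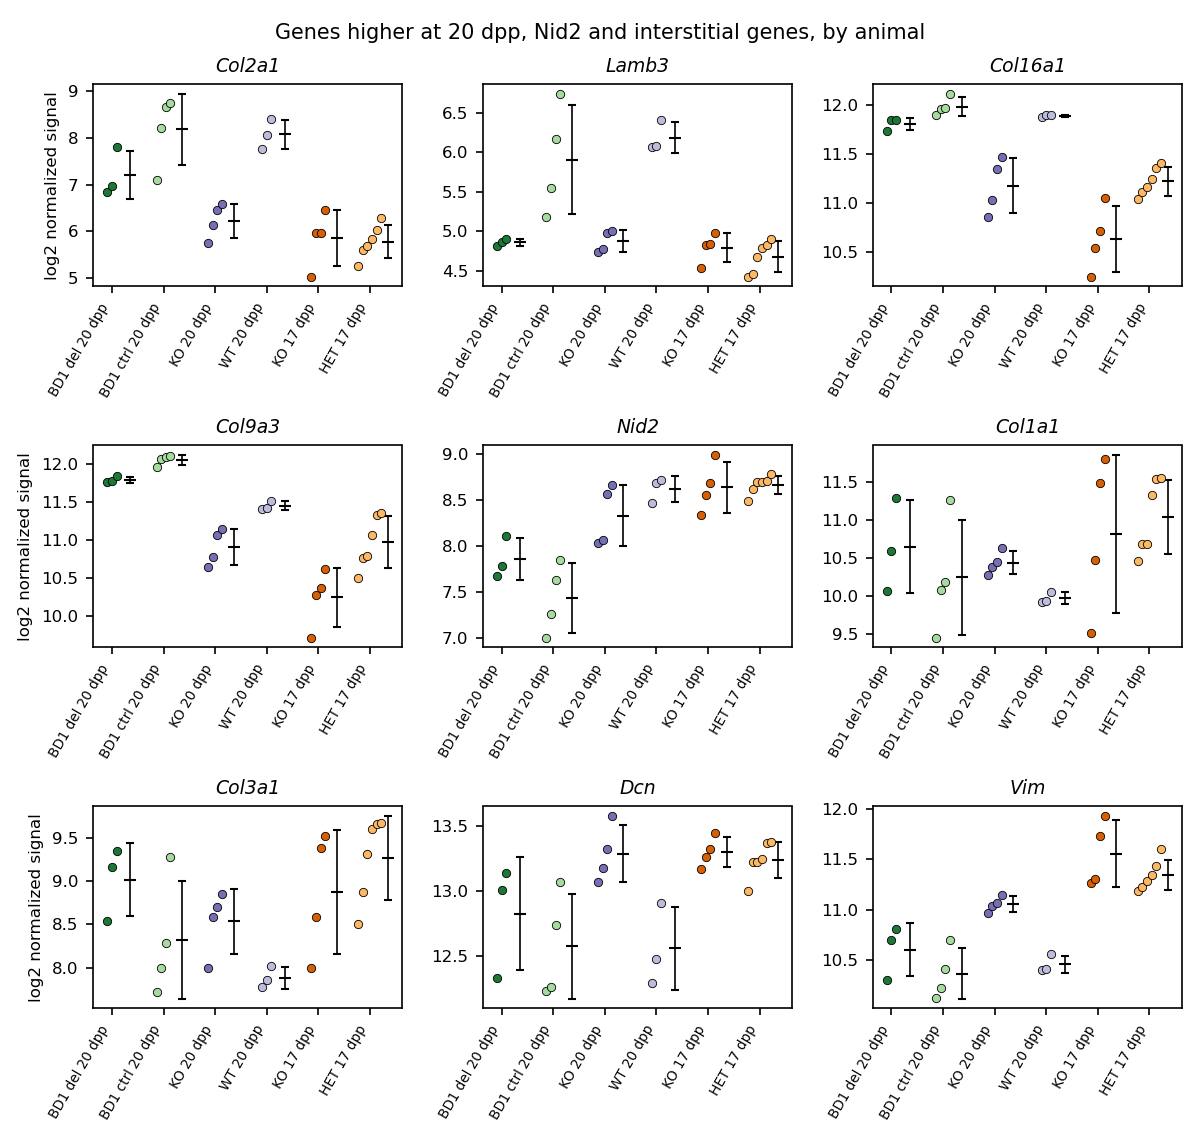
Log2 normalized signal (vertical axis) of Col2a1, Lamb3, Col16a1, Col9a3, Nid2, Col1a1, Col3a1, Dcn and Vim in each mouse, by group, with group mean and SD beside the points. Col2a1, Lamb3, Col16a1 and Col9a3 are lower in the KO 20 dpp mice than in the WT 20 dpp mice, Nid2 is low in both groups of the BD1 line, and Col1a1 and Col3a1 spread widely in the KO 17 dpp mice.

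Upstream sequence is shown for 3 of the genes that were lower in the older controls and for both genes of the opposite kind that the RefSeq promoter table holds, to let their proximal promoters be compared. The table (GRCm38.p6) matched 27 of the 42 genes, and Col2a1, Col9a3, Col1a1, Dcn, Lum, Col4a3 and Nid2 are among those it does not hold. Each line gives the 150 bases before the start site, 5′ to 3′ on the gene's strand, with matches on either strand in capitals. The motifs searched were the TATA box, written TATAAA, a box that NF-Y binds, written CCAAT, and the GC box that Sp1 binds, written GGGCGG. The stretches lie at chr6:4505468-4505617 for Col1a2, chr1:45311388-45311537 for Col3a1, chr11:55420081-55420230 (minus strand) for Sparc, chr4:130047690-130047839 for Col16a1 and chr1:193301844-193301993 for the upstream of 2 starts of Lamb3.
Col1a2: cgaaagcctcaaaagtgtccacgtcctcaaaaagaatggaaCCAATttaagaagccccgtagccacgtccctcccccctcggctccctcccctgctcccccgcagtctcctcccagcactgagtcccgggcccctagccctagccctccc
Col3a1: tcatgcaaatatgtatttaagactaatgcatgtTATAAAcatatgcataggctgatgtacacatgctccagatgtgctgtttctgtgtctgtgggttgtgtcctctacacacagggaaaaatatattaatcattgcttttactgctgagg
Sparc: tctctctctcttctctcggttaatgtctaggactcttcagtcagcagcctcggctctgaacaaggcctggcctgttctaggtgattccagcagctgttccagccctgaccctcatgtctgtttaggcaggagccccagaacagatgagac
Col16a1: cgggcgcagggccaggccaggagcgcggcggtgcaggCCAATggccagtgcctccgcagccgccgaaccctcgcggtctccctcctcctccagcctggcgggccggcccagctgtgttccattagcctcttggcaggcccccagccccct
Lamb3: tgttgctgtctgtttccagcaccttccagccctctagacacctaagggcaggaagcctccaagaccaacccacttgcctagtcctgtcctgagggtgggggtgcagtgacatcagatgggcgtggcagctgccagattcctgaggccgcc
Within these stretches a CCAAT match lies in Col1a2 and Col16a1 and a TATAAA match in Col3a1, while Sparc and Lamb3 hold none of the 3 motifs. Within 250 bases before the start, GGGCGG was found in 15 of the 27 matched genes and in 33.0% of all genes of the table, CCAAT in 10 of 27 and 34.5%, and TATAAA in 3 of 27 and 13.0%. A match is a run of letters and no measured site. The starts of Col4a1 and Col4a2, which are read in opposite directions, lie 21 bases apart in the table. Their entries share 78 bases, and each start lies inside the first bases read from the other gene. Neither start lies within the 250 bases before the other.

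At 17 dpp the knockout changed few of the matrix genes. Against heterozygous mice, Col9a3 and Col16a1 were lower and none of the 42 genes was higher. Among all genes tested, 0.199% were higher and 1.14% lower. With no adjustment, 4 of the 42 genes had p under 0.05 in limma's test, 1 higher and 3 lower. The share of all genes at that threshold is not given here, so this count cannot be set against background. The median log2 fold change was 0.02, beside 0.04 over all genes tested. In 0 of the 42 genes did the groups separate without overlap (1.8% of all genes above and 1.14% below).

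Col9a3 read 9.71, 10.28, 10.37 and 10.62 in knockout mice at 17 dpp, against a lowest, median and highest of 10.5, 10.9 and 11.4 in heterozygous mice. The log2 fold change was -0.72 (SE 0.16, adjusted p = 0.0235), and knockout animal 73 alone lay within the heterozygous range. Col16a1 read 10.25, 10.54, 10.72 and 11.05 in knockout mice, against 11.0, 11.2 and 11.4 in heterozygous mice (-0.58, SE 0.12, adjusted p = 0.0233), and animal 129 lay within the heterozygous range. Neither call held in each repeat with an animal left out. Col9a3 lost it without knockout animal 122 (-0.54, adjusted p = 0.129) or 129 (0.057) and heterozygous animal 75 (0.0577) or 131 (0.0586). Col16a1 lost it without knockout animal 72 (0.0502) or 73 (0.0584) and heterozygous animal 127 (0.0637) or 131 (0.0586). With only these 2 groups in the fit, 0 of the 42 genes were called, and with litter as a block 1 was higher and 2 lower (2.85% and 8.16% of all genes).

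The basement membrane genes did not pass at 17 dpp. Col4a5 differed by -0.05 (95% interval -0.35 to 0.25), Col18a1 by 0.09 (-0.21 to 0.38) and Sparc by 0.08 (-0.22 to 0.38). Lama1 differed by 0.09 (-0.22 to 0.41), Lamc1 by 0.08 (-0.33 to 0.49), Nid1 by 0.21 (-0.12 to 0.53) and Hspg2 by 0.08 (-0.30 to 0.47). Lama5, with 0.38 (0.05 to 0.71, adjusted p = 0.245), had the largest upward value of the 42 genes. The fibrillar chains had values below 0 in 4 of 6 cases, with Col3a1 at -0.40 (-1.03 to 0.23), Col1a2 at -0.31 (-1.06 to 0.44) and Col1a1 at -0.22 (-0.97 to 0.52). Their intervals are wide. The knockout mice at this age had an SD of 1.04 for Col1a1, from 9.51 in animal 73 to 11.81 in animal 122. Among the other genes Dcn (0.06), Bgn (-0.05), Fn1 (0.22), Vim (0.21), Lamb2 (0.26), Col4a1 (-0.19) and Col4a2 (0.04) did not pass either.

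Whether the effect of the knockout differs between the ages was tested as the difference of the fold changes at 20 and 17 dpp. It was larger at 20 dpp for Col4a5 (difference 0.98, SE 0.23, adjusted p = 0.00421), Col18a1 (0.76, SE 0.22, adjusted p = 0.0188), Sparc (0.65, SE 0.22, adjusted p = 0.0415) and Col4a3 (0.61, SE 0.21, adjusted p = 0.0388). It was more negative for Col2a1 (-1.91, SE 0.46, adjusted p = 0.00584). Lamb3 also passed, but 3 of the 4 groups had no array that detected it, so its difference is not read. With Lamb3 counted, the 4 genes make up 9.52% of the 42 and the 2 genes 4.76%, beside 12.4% and 11% of all genes. The test did not call Lama1 (0.50, adjusted p = 0.115), Lamc1 (0.71, 0.0915), Nid1 (0.39, 0.229) or Hspg2 (0.61, 0.115). For Col9a3 (0.18, adjusted p = 0.591) and Col16a1 (-0.12, adjusted p = 0.641), the genes lower at both ages, no difference between the ages was detected. The count is sensitive to single animals: 16 of the 42 genes were called without knockout animal 122 (14 higher, beside 17.1% of all genes) and 3 without wild-type animal 149 (1 higher, beside 4.67%). Col18a1 lost its call without wild-type animal 149 (0.69, adjusted p = 0.0634). The calls for Col4a3 and Sparc were lost when any of several animals was left out, with the highest adjusted p without wild-type animal 157 for Col4a3 (0.122) and without wild-type animal 149 for Sparc (0.105). Those for Col4a5 and Col2a1 held under each alternative. The controls were wild type at 20 dpp and heterozygous at 17 dpp, so age and control genotype cannot be told apart in this test.

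The BD1 deletion gave few calls, although 37 of the 42 genes (88.1%) had a log2 fold change above 0, as had 64.3% of all genes. Col18a1 and Col22a1 were higher and Lamb3 was lower than in the controls of that line, 3 of 42 genes. Among all genes tested, 3.23% were higher and 6.4% lower, beside 4.76% and 2.38% of the 42 genes, so in this fit the shares are near the background. The median log2 fold change was 0.40, beside 0.12 over all genes. Relative to that shift, 1 gene was higher and 1 lower (0.434% and 9.34% of all genes). With no adjustment, 10 of the 42 genes had higher and 2 lower levels at p under 0.05. These counts have no share of all genes beside them and cannot be set against background. The animals did not overlap in 3 genes above, Col22a1, Col7a1 and Lama5, and in 3 below, Lamb3, Col16a1 and Col9a3 (11% and 7.9% of all genes).

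Col22a1 read 6.90, 6.94 and 7.10 in BD1 deletion mice, against 6.20, 6.34, 6.38 and 6.58 in their controls (log2 fold change 0.61, SE 0.15, adjusted p = 0.00846). Col18a1 read 11.66, 11.83 and 11.98 in BD1 deletion mice, against 10.59, 11.27, 11.40 and 11.67 in controls, where the heterozygous animal 191 reached the lowest deletion mouse (0.59, SE 0.17, adjusted p = 0.0296). Lamb3 read 4.81, 4.86 and 4.90 in BD1 deletion mice, with no array detected, against 5.18, 5.54, 6.16 and 6.74 in controls. It was at least 1.29-fold lower, and the adjusted p of 0.00558 comes from limma's test on the measured values, not from the bound. Within the controls the heterozygous mice were the lower pair for Lamb3, at 5.18 and 5.54.

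The deletion mice and their controls share litters 4, 5 and 6. A fit with litter as a block called 10 of the 42 genes higher and 2 lower (11.2% and 10.5% of all genes). Higher in it were Hspg2 (0.50, adjusted p = 0.00618), Lamb2 (0.43, 0.0341), Lamc3 (0.55, 0.0137), Col4a2 (0.47, 0.0326), Nid2 (0.39, 0.0468), Bgn (0.49, 0.0144), Col1a2 (0.69, 0.0402), Col7a1 (0.57, 0.0183), Col18a1 and Col22a1. Col2a1 (-0.88, 0.022) and Lamb3 were lower.

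Single animals decide much of this comparison. Without BD1 deletion animal 193, 1 of the 42 genes was called, and Col18a1 (0.51, adjusted p = 0.162) and Col22a1 (0.55, adjusted p = 0.069) were not. Without the heterozygous control 191, 14 were higher and 2 lower (18.2% and 11.6% of all genes), among them Hspg2 (0.70, adjusted p = 0.0188), Lamb2 (0.69, adjusted p = 0.0158), Sparc (0.53, adjusted p = 0.0154), Lama1 (0.52, adjusted p = 0.0202) and Col2a1 (-1.33, adjusted p = 0.0042). The call for Col18a1 was also lost without BD1 deletion animal 197 (0.103), control 196 (0.132) or control 219 (0.0522). Without BD1 deletion animal 222, Col2a1 (-1.26, adjusted p = 0.0345) and Col4a5 (0.55, adjusted p = 0.0477) passed. Against the heterozygous controls alone, 0 genes were called, and against the wild-type controls alone 7 were higher and 2 lower (15.2% and 10.6% of all genes), with Col2a1 at -1.49 (adjusted p = 0.00456).

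In the fit without litter, most of the remaining basement membrane genes had positive values that did not pass in the BD1 deletion, and Lama2 (-0.02) was near 0. Hspg2 read 9.97, 10.23 and 10.49 in deletion mice, against 9.37, 9.41, 9.82 and 10.24 in controls (log2 fold change 0.52, 95% interval 0.07 to 0.97, adjusted p = 0.119). Lamb2 differed by 0.48 (0.03 to 0.93, adjusted p = 0.146), Lamc1 by 0.41 (-0.08 to 0.90, adjusted p = 0.233), Lama1 by 0.34 (-0.03 to 0.71, adjusted p = 0.194) and Lama5 by 0.34 (-0.04 to 0.73, adjusted p = 0.213). Nid1 differed by 0.27 (-0.12 to 0.65), Col4a1 by 0.40 (-0.20 to 1.00) and Col4a2 by 0.52 (-0.07 to 1.11).

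Sparc differed by 0.36 (0.01 to 0.72, adjusted p = 0.157), Fn1 by 0.42 (-0.03 to 0.87), Bgn by 0.51 (0.08 to 0.95), Dcn by 0.25 (-0.14 to 0.65) and Vim by 0.24 (-0.08 to 0.56). The fibrillar chains Col3a1 (0.70, -0.05 to 1.44), Col1a2 (0.50, -0.38 to 1.39) and Col1a1 (0.40, -0.48 to 1.28) also stayed short of the threshold. Col1a2 was out of step with the other chains in litter 4: animals 193 and 191 read 7.38 and 7.04 for it, the lowest of their groups, and 11.29 and 11.27 for Col1a1, the highest.

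A direct test of the BD1 deletion effect against the knockout effect at 20 dpp called 0 of the 42 genes, where 1.09% of all genes were higher and 0.156% lower. At an unadjusted p under 0.05 in the same limma fit it gave 4 genes, 2 in each direction, with no share of all genes to set beside them. For Col18a1 the difference between the effects was -0.26 (95% interval -0.76 to 0.24) and for Col2a1 0.87 (-0.16 to 1.90). For Col4a5 it was -0.55 (-1.05 to -0.04, adjusted p = 0.293). These intervals leave room for effects of clearly different size.

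The controls of the BD1 line and the wild-type mice of the knockout line, all at 20 dpp, differed in 1 of the 42 genes. Nid2 read 7.00, 7.26, 7.63 and 7.85 in the BD1 line controls, against 8.46, 8.68 and 8.71 in wild type of the knockout line. The 2.27-fold lower level (log2 fold change -1.18, SE 0.19, adjusted p = 0.000946) was free of overlap. The BD1 deletion mice read 7.67, 7.78 and 8.11. Of the 42 genes 2.38% were lower here and 0% higher, beside 0.659% and 1.05% of all genes. The mice did not overlap in 2 genes above and 2 below, where all genes gave 7.32% and 5.6%. With only these groups in the fit, Nid2 had an adjusted p of 0.0584, while 1 other of the 42 genes was called higher. The share of all genes in that fit is not given here, so its count cannot be set against background. Line, litters and control genotype cannot be told apart in this comparison.

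Individual mice of 1 group moved together in these genes. Knockout animal 122 at 17 dpp was the highest of its group in 32 of the 42 genes, and animal 73 the lowest in 33. In the BD1 line, deletion animal 193 was highest in 33 genes and 222 lowest in 32, and control 191 was highest in 32. The median SD between mice was 0.316 for the 42 genes and 0.17 for all genes in the BD1 deletion group, and 0.437 and 0.23 in its controls. It was 0.388 and 0.204 in the knockout at 17 dpp, and 0.301 and 0.205 in its heterozygous controls. At 20 dpp it was 0.236 and 0.19 in the knockout, and 0.127 and 0.133 in wild type. The 3 wild-type mice, all of 1 litter, are the tightest group.

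The mouse with the lightest testis had the highest median deviation of the 42 genes in 5 of the 6 groups. At 17 dpp knockout animal 122, with a testis of 9 mg, stood 0.37 above its group mean, against -0.41 for animal 73 with 19 mg. Heterozygous animal 121 (11 mg) stood at 0.28 and animal 75 (17 mg) at -0.30. In the BD1 line, deletion animal 193 (18.6 mg) stood at 0.22 and animal 222 (22.8 mg) at -0.28, while control 191 (19 mg) stood at 0.50 and the heaviest, animal 195 (25.3 mg), at 0.04. At 20 dpp the knockout animal 139 (18 mg) stood at 0.11, and in wild type the lightest, animal 149 (22 mg), at -0.03. Over all genes tested the same deviations stayed between -0.05 and 0.07. The rest of the mice did not follow weight in every group: of the BD1 line controls, animal 196 (22.6 mg) was the lowest at -0.38 and animal 219 (23.2 mg) stood at -0.17, and the 3 wild-type mice at 20 dpp lay between -0.03 and 0.03. Litter ran with weight in part. Animals 122 and 121 were of litter 9, 73 and 75 of litter 7, and 193 and 191 of litter 4. Animals 139 and 140 shared litter 2 but had testes of 18 and 21.2 mg. The part of testis weight or litter in these deviations and in the group differences was not tested.

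**Figure D4:**
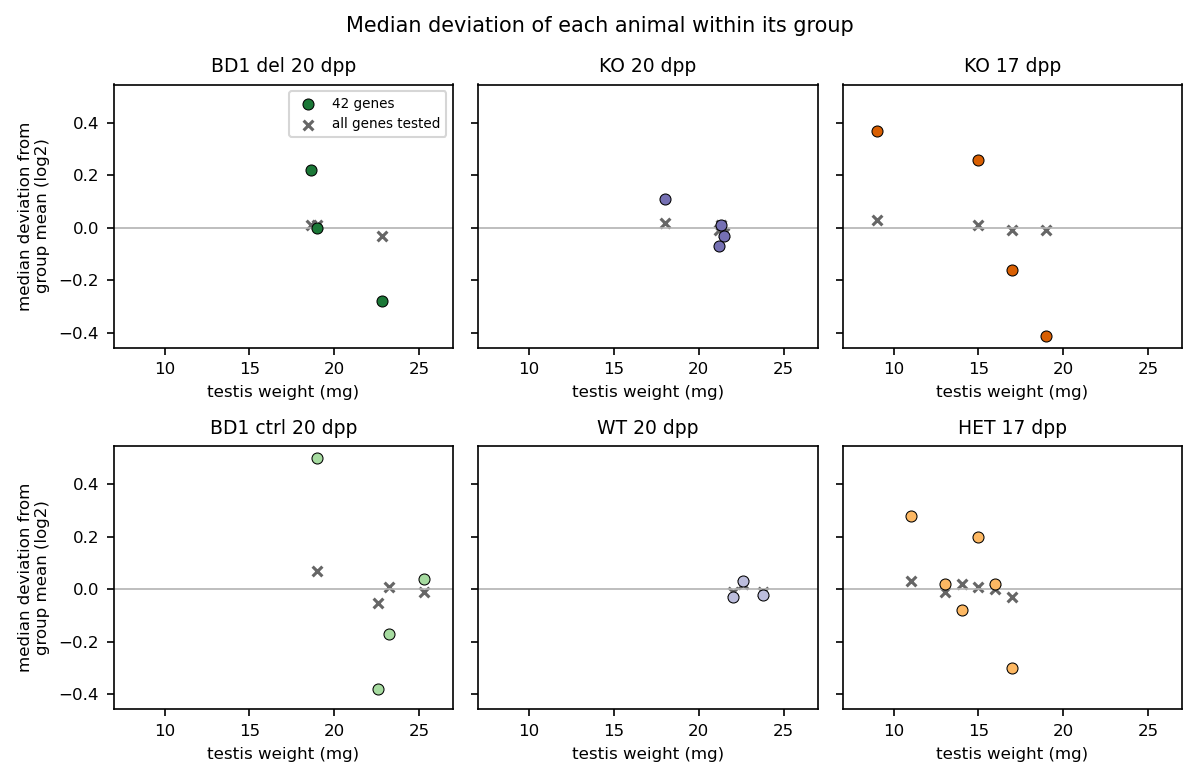
Median deviation from the group mean over the 42 genes (coloured circles) and over all genes tested (grey crosses), in log2 units, against testis weight in mg, with a panel for each group and a point for each mouse. The lightest mouse is the highest in 5 of the 6 groups, and the crosses stay within -0.05 to 0.07. Litters, which ran with weight in part, are not marked.

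Genes that act on the matrix were also measured in the knockout at 20 dpp. Of 21 measured genes of collagen processing, 12 were higher and none lower (median log2 fold change 0.49). P4hb (0.70), P3h1 (0.84) and Plod2 (0.74), a lysyl hydroxylase, had the smallest adjusted p. P4hb codes for a subunit of the enzyme that hydroxylates proline in procollagen. Of 17 matrix proteases and inhibitors, 12 were higher, led by the inhibitors Timp1 (1.10) and Timp2 (0.77) and the plasminogen activator Plat (0.65). Of 11 TGF-beta and CCN factors, 8 were higher, among them Tgfbi (1.01), Smad2 (0.66) and Tgfbr1 (0.58). The share of all genes called higher was 39.4%.

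Among 20 matrix receptors, knockout mice of 20 dpp had 10 higher and 1 lower. The integrin chain Itga11, a collagen receptor, was higher by 1.24 and Itgb5 by 0.97, and the collagen-binding kinase Ddr1 by 0.64. Itga1, the other collagen-binding integrin chain on the list, was lower by a log2 fold change of -1.10. Of 23 other matrix glycoproteins and proteoglycans, 8 were higher and 2 lower, with Agrn (0.96), Prelp (0.67) and Ltbp4 (0.92) higher and Papln (-1.11) and Smoc1 (-0.25) lower.

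In the BD1 deletion the same lists gave fewer higher calls than in the knockout at 20 dpp. Of all genes tested, 3.23% were higher and 6.4% lower in the BD1 deletion. Higher were P3h1 (0.59) and P4hb (0.43) of 21 processing genes, Plat (0.45) and Timp1 (0.59) of 17 proteases and inhibitors, Smad2 (0.43) and Smad3 (0.59) of 11 TGF-beta and CCN factors, Itga11 (0.97) of 20 receptors and Mfap5 (0.68) of 23 other matrix genes. Lower were Itga1 (-1.10), Papln (-0.59) and Spock2 (-0.33). Median log2 fold changes of the 5 lists ran from 0.27 to 0.43, beside 0.12 over all genes. At 17 dpp only Sdc1, a syndecan, was called in the knockout (0.50), and none was lower (0.199% and 1.14% of all genes higher and lower).

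Markers of the cell types of the testis were counted beside the 39.4% of all genes called higher in knockout mice aged 20 dpp. There 17 of 19 Sertoli cell markers were higher, among them Inha (0.88), Cst9 (0.63) and Gstm6 (0.76), and their summed signal was 125000 to 143000 in knockout mice, against 83100 to 98700 in wild type. Of 8 peritubular myoid cell markers, 2 were higher, Mylk (0.48) and Lmod1 (0.63), with summed signals of 24300 to 28500 in knockout mice and 17500 to 21800 in wild type. Of 9 stromal and perivascular markers, 6 were higher, led by Gsn (0.79), Cd34 (0.94) and Tcf21 (0.69), with sums of 3760 to 3960 in knockout mice and 2230 to 2550 in wild type. The groups did not overlap in any of these 3 sums. A sum of signals weighs the brightest probes of a list most.

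Of 10 macrophage markers, 8 were higher in the knockout at 20 dpp, with Tyrobp at 0.92, C1qb at 1.03 and C1qc at 0.95, and of 6 Leydig cell markers 3, Cyp11a1 (1.00), Insl3 (0.58) and Hsd17b3, which no wild-type array detected and which was at least 1.05-fold higher in the knockout. Of 10 endothelial markers, Egfl7 (0.52) and Cldn5 (0.64) were higher and Sox17 (-1.58) lower. Of the germ cell lists, 8 of 9 spermatogonial and early prophase markers were higher (Kit 0.72, Sohlh1 0.79, Rhox13 0.86). Of pachytene spermatocyte markers 5 of 9 were lower (Ccna1 -5.03, Adam3 -2.94, Tdrd6 -2.18), and of spermatid markers 12 of 12 (Odf1 -5.6). No knockout array detected Acrv1, at least 28.1-fold lower in the knockout, or Txndc8, at least 15.1-fold lower. The summed signal of the spermatid list was 971 to 2400 in knockout mice, against 13900 to 21200 in wild type. The part of these markers in the change of the matrix genes was not tested.

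At 20 dpp the summed macrophage signal was 4210 to 5070 in knockout mice, against 2410 to 3210 in wild type, and the Leydig sum 11700 to 16000, against 6520 to 10700. The endothelial sum was 1810 to 2110 in knockout mice, against 1460 to 1610 in wild type. Of tissue that could be carried over at dissection, 1 of 4 measured epididymis markers was higher, Wfdc10 (0.94). The list's sum was 6990 to 10500 in knockout mice and 4150 to 5130 in wild type. Most of that sum is the signal of Wfdc10 itself, with log2 means of 13 in knockout mice and 12.1 in wild type. Lcn9, Rnase10 and Gpx5 were detected on no array. Neither of 2 adipocyte markers was called, with sums of 183 to 208 and 167 to 206, and Fabp4 and Retn were detected on no array. None of 5 blood cell markers was called, with sums of 19800 to 81700 in knockout mice and 32800 to 83000 in wild type.

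Of all genes tested, 3.23% were higher and 6.4% lower in the BD1 deletion, and 0.199% and 1.14% in the knockout at 17 dpp. In the BD1 deletion 2 of 19 Sertoli markers were higher (Cst9 0.41, Sox9 0.42), with sums of 101000 to 128000 in deletion mice and 76900 to 115000 in controls, which overlap. Of 12 spermatid markers 8 were lower (Odf1 -4.34, Acrv1 at least 14.1-fold and Txndc8 at least 7.06-fold, neither detected in deletion mice), with sums of 4130 to 6440 in deletion mice and 6910 to 20700 in controls. Of 9 stromal and perivascular markers 1 was higher, Mfap5 (0.68), and of 9 spermatogonial markers 1, Sohlh1 (0.55). The pachytene marker Ccna1 was lower (log2 fold change -1.38), and no peritubular, Leydig, endothelial or macrophage marker was called. Peritubular sums ran from 17000 to 26100 in deletion mice and from 14800 to 31900 in controls. At 17 dpp, the knockout had 1 of 12 spermatid markers lower (Prss21, detected on no knockout array and at least 1.63-fold lower) and 2 of 9 pachytene markers (Adam3 -3.39, Tdrd6 -2.14), and Sertoli sums of 144000 to 150000 in knockout mice, against 129000 to 144000 in heterozygous mice.

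With age in the controls, 17 of 19 Sertoli markers, 5 of 8 peritubular markers, 7 of 9 stromal and perivascular markers and 8 of 10 endothelial markers were lower at 20 dpp, beside 45.5% of all genes. So were 7 of 9 spermatogonial and early prophase markers and 6 of 10 macrophage markers. Higher were the endothelial marker Sox17, the macrophage marker Fcgr3 and 6 of 9 pachytene markers (25.9% of all genes). Of 6 Leydig cell markers 2 were lower, with a median log2 fold change of 0.01 over the list. The Sertoli sum was 83100 to 98700 in wild-type mice at 20 dpp, against 129000 to 144000 in heterozygous mice at 17 dpp, and the peritubular sum 17500 to 21800, against 26900 to 31000. All 12 spermatid markers were higher, with sums of 13900 to 21200 at 20 dpp and 758 to 1800 at 17 dpp. The part of these shifts in the lower matrix levels was not tested.

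**Figure D5:**
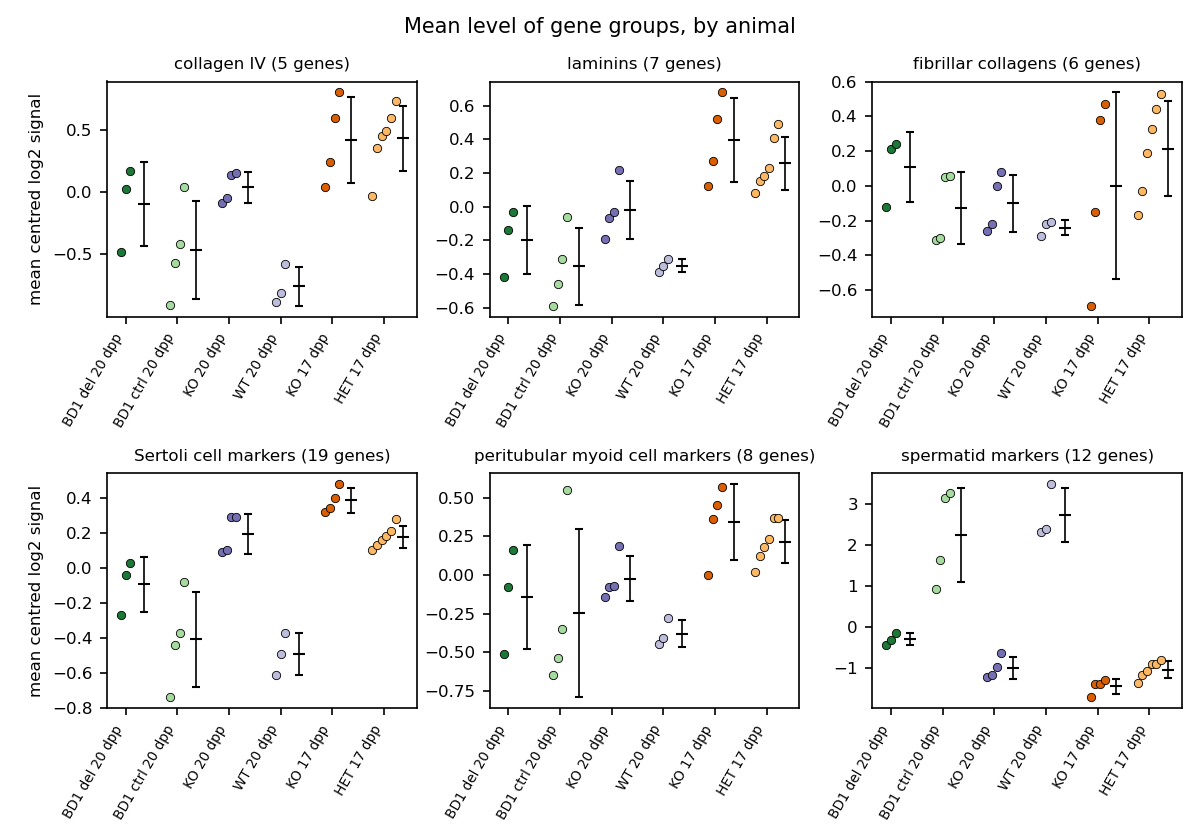
Mean over the genes of a group of the log2 signal centred on each gene's mean over all mice (vertical axis), for each mouse, by group, with group mean and SD beside the points. In the KO 20 dpp mice the collagen IV, laminin and Sertoli cell marker panels lie above the WT 20 dpp mice while in the spermatid marker panel they are lower, and the fibrillar collagen panel shows a wide spread in the KO 17 dpp mice.

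Of the 42 genes, 17 have several kept probes, and in 0 genes were probes called in opposite directions. Col17a1, which codes for a transmembrane collagen of hemidesmosomes, did not pass with its brightest probe in the knockout at 20 dpp (0.23, adjusted p = 0.583), while its dimmest probe gave -0.51 (adjusted p = 0.00835). For Col14a1, a fibril-associated collagen, the second probe gave an age change of 0.10 (adjusted p = 0.769), where the brighter one gave -0.62.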

How the data were processed

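Per the labels' protocols, testis RNA was extracted with Trizol. Probe intensity and detection p-values per array were deposited by the authors, and the submitters' processing notes name GenomeStudio 2011.1. No source used here tells if a background had been taken off. The authors' processed matrix, also intensity, served as an alternative only. The 42 genes and the companion and marker lists were chosen with earlier results of these data known.

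Arrays were corrected and quantile-normalized with neqc (limma 3.58.1 in R 4.3.3, offset 16), and arrays with the same mouse number, litter and testis weight were averaged, giving 24 mice from 36 arrays. The series text counts 6 replicates per group. Of 45281 probes, 34885 name 1 gene, 18 several and 10378 none in the platform table. Probes at a detection p under 0.01 in at least 3 mice were kept (21190), and the brightest stood for each gene (11529 genes). One limma fit over all 6 groups gave moderated tests with Benjamini-Hochberg adjustment over all genes at 0.05. Intervals are 95%. The number of mice limits the precision. The p-values set a group difference against the spread between mice, estimated over all 6 groups. The wild-type mice at 20 dpp, all of 1 litter, show no spread between litters. The code was tested on simulated data.

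Genes named in full are the main chains of each class and up to 6 called genes in each direction with the smallest adjusted p. Alternatives were other background corrections, scalings and probe filters, the mean or each of a gene's probes, changes relative to the median of all genes, all arrays with the mouse as a random block, litter, brightness and replicate number as blocks, only the compared groups, and leaving out each mouse. Promoter sequences are from RefSeq. Figures were drawn with matplotlib 3.10.9.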

Additional observations from a re-analysis of the deposited data

Results flagged for a closer look

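In 3 of 168 gene and group pairs tested, a single mouse lay far from the others by Dixon's criterion, which chance meets in about 1 in 20 groups. Knockout animal 139 at 20 dpp read 7.09 for Col22a1, below 7.3 for the next mouse, and 6.16 for Lama5, above 5.77 for the next. In the controls of the BD1 line, heterozygous animal 191 read 8.54 for Nid1, above 7.88 for the next.

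For 5 genes the knockout effect differed between 20 and 17 dpp by the test of the difference itself. It was higher at 20 dpp by 0.76 for Col18a1, 0.61 for Col4a3, 0.98 for Col4a5 and 0.65 for Sparc, and differed by -1.91 for Col2a1, on the log2 scale. Of these genes, Col4a5 and Col2a1 alone held their call under each alternative. The controls differ in genotype between the ages, so age and control genotype cannot be told apart in this test.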

How the results depend on the processing

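No called value changed sign under any alternative. In the knockout at 20 dpp, 23 of the 42 genes were called, 10 relative to the median of all genes, 12 within litter 1, and 20 to 23 with a mouse left out. In the BD1 deletion, 3 were called, 0 with only the groups compared, 9 on all arrays with the mouse as a random block, 12 with litter as a block, 0 against heterozygous controls, 9 against wild-type controls, and 1 to 16 with a mouse left out. In the knockout at 17 dpp, 2 were called, 0 with only the groups compared and 0 to 2 with a mouse left out. The difference between the ages gave 6 genes, Lamb3 included, 3 relative to the median, and 3 to 16 with a mouse left out. With age 35 genes were called, 28 to 35 with a mouse left out. The cause of these shifts was not tested. For the fit on all arrays the share of all genes is not given, so its count cannot be set against background. Without background correction the median of all genes was 0.14 in place of 0.24 in the knockout at 20 dpp and -0.14 in place of -0.25 with age.

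Whether replicate numbers pair the mice was not settled. Same-numbered deviations correlated at -0.15 to 0.66 at 17 dpp, -0.13 to 0.46 in the knockout line at 20 dpp and -0.05 to 0.48 in the BD1 line. At 17 dpp 3 of 6 numbers correlated best with their own, in the knockout line at 20 dpp 2 and in the BD1 line 5. With the number as a replicate block over arrays, 20 genes were called in the BD1 deletion, 2 in its difference from the knockout, 4 between the control lines, 28 in the knockout at 20 dpp, 8 in the difference between ages, 2 at 17 dpp and 35 with age. That fit counts repeated arrays as units. A replicate block with the mouse as a random block, chosen after seeing the data, gave 10 in the BD1 deletion. Shares of all genes under replicate blocks are not given here, so these counts cannot be set against background.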
